A study of Mus musculus with 147 samples.

Results

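The genes described here are 9 calcium handling channels and sensors, chosen by name: the voltage-gated calcium channel subunits *Cacna1c*, *Cacna1d* and *Cacna1h*, the inositol trisphosphate receptors *Itpr1* and *Itpr2*, the calcium-activated chloride channel *Ano1*, the calcium-activated potassium channel *Kcnma1*, and the store-operated entry pair *Stim1* and *Orai1*. All 9 were present among the 35438 genes of the deposited tables. In the contractile cells of arterioles, calcium enters through voltage-gated channels and leaves the endoplasmic reticulum through inositol trisphosphate receptors. *Ano1* depolarises the membrane when calcium rises, *Kcnma1* hyperpolarises it, and *Stim1* senses an empty store and opens *Orai1* in the plasma membrane. Renin cells are modified mural cells in which a rise of intracellular calcium is known to inhibit renin release, the reverse of its role in most secretory cells.

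Single YFP-positive kidney cells of C57BL/6 mice were sorted, captured on a Fluidigm C1 instrument and sequenced with full-length cDNA chemistry. The WT renin cells (51 cells) came from *Ren1c+/+ Ren1c-YFP* adults and the Renin-null cells (96 cells) from *Ren1c-/- Ren1c-YFP* adults, which lack renin throughout life and received saline injections after birth. Both genotypes carried the transgene in which the 5′ regulatory sequence of *Ren1c* drives YFP, so a cell was collected because that sequence was active, whether or not it made renin. Mice of both sexes were used, several mice were pooled per genotype with no mouse given for a cell, the WT renin cells came from a single capture and the Renin-null cells from several that are not given per cell, and the Renin-null cells were sequenced as 2 libraries, YFP1 and YFP2, of 48 wells each.

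Each genotype therefore counted as 1 sample, no test between genotypes was possible, and effects of genotype, capture and sequencing library cannot be told apart. The 2 Renin-null libraries are given apart as the only available measure of spread. Counts summed to 197904443 over the WT renin cells (26401 to 17124854 per well, median 1525972) and to 398812805 over the Renin-null cells (3628 to 14505243, median 4107950). Mitochondrial transcripts made up a median of 60.4% of a WT well's counts and 12.4% of a Renin-null well's. A filter that asked for 100000 counts or more, 1000 genes or more and a mitochondrial share of up to 25% was passed by 15 WT and 57 Renin-null wells. Of the Renin-null wells, 4 pairs correlated above 0.95 across genes (lowest 0.963, against 0.894 for the next pair) and are counted once in an alternative given in the closing section. The same 48 pairs of index sequences were used in all 3 libraries.

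*Ren1*, the deleted gene, held 96023 CPM (counts scaled to 1000000 per sum) in WT renin cells, where it was detected in all 51 cells (lowest 563, median 21402, highest 313965 CPM). In the Renin-null libraries it held 0.176 CPM in YFP1 and 0.101 CPM in YFP2, with a median of 0 in both. The renin cell marker *Akr1b7* held 4528 CPM in WT, 1700 in YFP1 and 2271 in YFP2 as a sum over cells, while its median per cell was 254, 63.4 and 527 CPM. All 9 mural markers examined had counts in every library and summed to 22756 CPM in WT, 25203 in YFP1 and 27522 in YFP2, with *Rgs5* the most abundant. Single wells differed: the median WT well held 2110 CPM of these markers and the median Renin-null well 13758 CPM, and 23 of 51 WT and 23 of 96 Renin-null wells held under 1000 CPM.

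Per kilobase of transcript, *Itpr1* stood first in summed level among the 9 genes in WT renin cells, at 41.6 CPM per kilobase, followed by *Stim1* at 33.5 and *Ano1* at 31.3. *Cacna1c* held 10.2 CPM per kilobase, and the other genes were below 2: *Cacna1h* 1.25, *Kcnma1* 0.738, *Cacna1d* 0.572, *Itpr2* 0.0758 and *Orai1* 0.00301. In Renin-null cells the first 4 were in the same order, at 47.6 CPM per kilobase for *Itpr1*, 33.8 for *Stim1*, 20.6 for *Ano1* and 11.2 for *Cacna1c*, and *Kcnma1* (2.13) stood before *Cacna1h* (0.892), *Cacna1d* (0.64), *Itpr2* (0.377) and *Orai1* (0.0299). The order of the leading genes was not stable between the Renin-null libraries. In YFP1 it ran *Itpr1* 80.4, *Ano1* 30.0, *Cacna1c* 21.0 and *Stim1* 12.5 CPM per kilobase, and in YFP2 it ran *Stim1* 51.5, *Itpr1* 20.2, *Ano1* 12.7 and *Cacna1c* 2.99. *Itpr1*, *Ano1* and *Cacna1c* kept the same order in every library, although the level of each differed between YFP1 and YFP2. Only *Stim1* changed place among these 4, so its rank was not separable beyond the spread between libraries. *Orai1* was lowest and *Itpr2* next in WT, and *Orai1* was lowest in YFP1 and in YFP2.

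**Figure D1:**
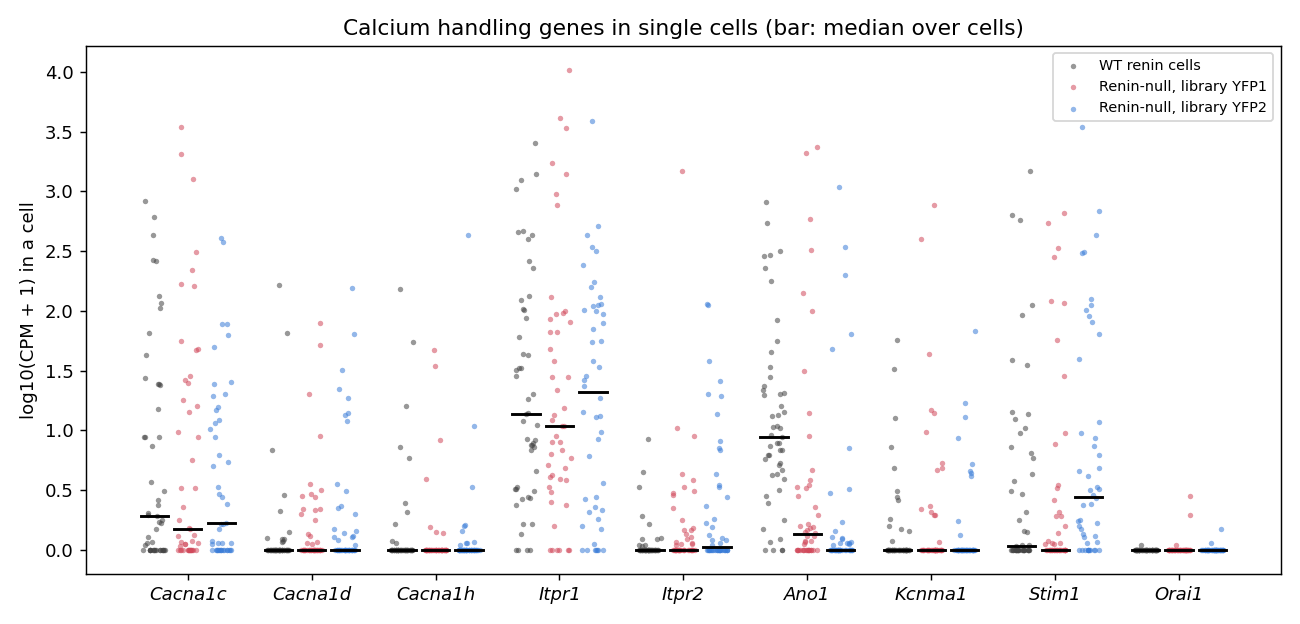
Level of each of the 9 genes in each cell, as log10(CPM + 1) on the vertical axis, for the 51 WT renin cells, the 48 Renin-null wells of library YFP1 and the 48 of library YFP2; each point is a cell and each bar the median over cells. Most cells sit at or near 0 for most genes and a few wells reach far above them, and *Ano1* is the gene whose WT bar (7.72 CPM) stands well above both Renin-null bars.

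A few wells carried most of the counts of each gene. The 3 highest wells held from 65% (*Cacna1c*) to 99.5% (*Cacna1h*) of the WT counts of the genes other than *Orai1*, and from 59.6% (*Itpr1*) to 98% (*Cacna1h*) of their Renin-null counts. *Orai1* was the extreme, with 1 count in WT and 90% of its 20 Renin-null counts in 3 wells. A median of 4 of the 9 genes was detected per cell in both genotypes, and 8 WT and 24 Renin-null cells held none of them at 10 CPM or more. Among the wells that passed the filter, the median was 5 in both genotypes. Sums over cells and shares of cells are for this reason given side by side.

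For the ratio between genotypes, counts were summed over the cells of each genotype, scaled to CPM and expressed as log2 of Renin-null over WT, with a 95% counting interval. These intervals cover counting error of reads only and those of shares the counting error of cells only, so that neither covers the spread between mice or captures, and the counts include PCR copies because the chemistry has no molecular identifiers. The median log2 ratio of all 18720 genes that had one was 1.17, so a ratio near 0 lay below that of most genes. A gene was called higher or lower where its log2 ratio was more than 1 above or below that median. By this rule 37.6% of all genes with a ratio were called higher and 34.6% lower.

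Of the 9 genes, 2 were called higher in Renin-null cells (*Itpr2* and *Orai1*) and 5 lower (*Cacna1c*, *Cacna1d*, *Cacna1h*, *Ano1* and *Stim1*). Their median log2 ratio was 0.16, which is -1.01 relative to the median of all genes. The *Orai1* call rests on 1 WT count, which was kept as it was, whereas a genotype at 0 counts was set to 3. The values of 3 genes lay at the limit of the rule, *Cacna1c* at -1.04, *Cacna1d* at -1.01 and *Itpr1* at -0.98 relative to the median. Among genes with at least 10 CPM in one genotype, 36.0% were called higher and 32.9% lower against their own median of 0.86. There, 5 of the 9 genes could be assessed, none was called higher and 2 were called lower (*Cacna1h* and *Ano1*). Counts of this size were not read as a result about these genes, since calls in one direction or the other were made for most genes. For 5 of the 9 genes (*Cacna1c*, *Cacna1d*, *Cacna1h*, *Itpr1* and *Stim1*) the log2 ratio against WT was above 0 with one Renin-null library and below 0 with the other. The share of all genes that do the same was not determined, so this is not read as particular to the 9.

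**Figure D2:**
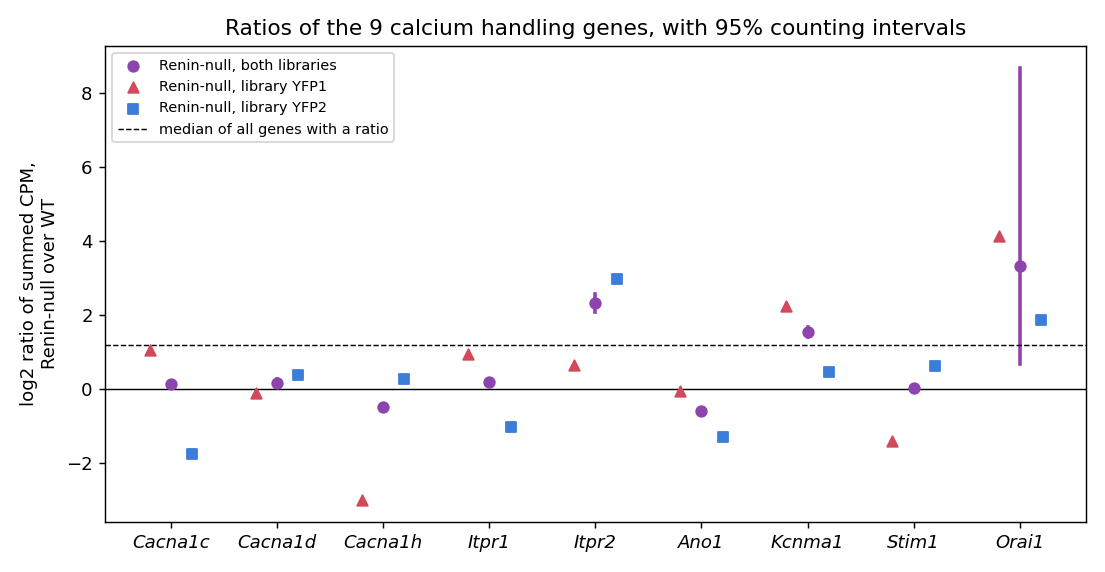
Log2 ratio of summed CPM, Renin-null over WT, of the 9 genes for both Renin-null libraries together (circles, with 95% counting intervals, narrower than the symbol for most genes), for library YFP1 (triangles) and for library YFP2 (squares); the dashed line is the median of all genes, 1.17. For *Cacna1c*, *Cacna1d*, *Cacna1h*, *Itpr1* and *Stim1* the 2 libraries lie on opposite sides of 0.

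Among the voltage-gated channels, *Cacna1c* encodes the pore of the main L-type channel of vascular smooth muscle (ENSMUSG00000051331.15, GRCm38 chromosome 6, 118587240 to 119196418, minus strand). It ran from 0 to 827 CPM in WT renin cells (median 0.923 CPM) and from 0 to 3489 CPM with a median of 0.647 in Renin-null cells. The distributions overlapped almost fully below 1000 CPM, and 3 Renin-null wells, all of library YFP1, lay above it. At least 10 CPM was reached by 15 of 51 WT cells (29.4%, exact Clopper-Pearson 95% interval 17.5 to 43.8) and by 30 of 96 Renin-null cells (31.2%, 22.2 to 41.5). Summed levels were 72.8 and 79.6 CPM, a log2 ratio of 0.13 (counting interval 0.10 to 0.16), from 150 CPM in YFP1 and 21.3 CPM in YFP2. Renin-null well 9 of library YFP1 alone held 14934 counts, 55.1% of that library's. Without it the YFP1 level was 68.8 CPM, the level over all Renin-null cells was 42.6 CPM and the log2 ratio was -0.77.

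*Cacna1d*, the pore of a second L-type channel that opens at more negative voltages (ENSMUSG00000015968.17, chromosome 14, 30039939 to 30491455, minus strand), was detected in 11 of 51 WT cells (21.6%, 11.3 to 35.3) and 40 of 96 Renin-null cells (41.7%, 31.7 to 52.2). Its median was 0 in both genotypes and its highest values were 165 CPM among WT and 156 CPM among Renin-null cells. To compare shares across depths, each well was thinned to 62000 total counts, which left out 2 WT and 13 shallower Renin-null cells. Because this does not match the mitochondrial and *Ren1* share, which left a median of 22473 other counts in a thinned WT well and 57253 in a thinned Renin-null well, the counts of all other genes were also thinned, to 10000 per well, which left out 0 WT and 8 Renin-null cells. *Cacna1d* was found in 3 of 49 WT cells (6.12%, 1.28 to 16.9) and 9 of 83 Renin-null cells (10.8%, 5.08 to 19.6) after the first, and in 5.88% (1.23 to 16.2) and 5.68% (1.87 to 12.8) after the second, with overlapping intervals both times. Of the WT counts, 81.4% came from a single well that did not pass the filter, and in passing wells alone the log2 ratio was 3.12 in place of 0.16 (0.05 to 0.27). The highest Renin-null well held 5649 CPM of proximal tubule markers, against 396 CPM over its whole library, together with 2730 CPM of mural markers; the part of such transcripts in the *Cacna1d* counts was not tested.

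*Cacna1h*, a low-voltage-activated T-type channel (ENSMUSG00000024112.16, chromosome 17, 25374285 to 25433783, minus strand), had a median of 0 in both genotypes, with highest values of 152 CPM among WT and 433 CPM among Renin-null cells. It was detected in 10 WT cells (19.6%, 9.82 to 33.1) and 17 Renin-null cells (17.7%, 10.7 to 26.8), and reached 10 CPM in 3 cells of each genotype. The summed levels, 10.3 CPM in WT, 1.28 in YFP1 and 12.4 in YFP2, followed single wells. One YFP2 well, with 3461 CPM of fibroblast and 23284 CPM of mural markers, held 89.3% of the Renin-null counts and one WT well 66.4% of the WT counts. The log2 ratio over both libraries was -0.49 (-0.57 to -0.41).

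Of the release channels of the endoplasmic reticulum, *Itpr1* (ENSMUSG00000030102.11, chromosome 6, 108213096 to 108551109, plus strand) was the gene of the 9 with the most counts, 80796 over WT and 186240 over Renin-null cells. It ran from 0 to 2553 CPM with a median of 12.8 in WT, from 0 to 10406 CPM with a median of 9.87 in YFP1, and from 0 to 3901 CPM with a median of 20.1 in YFP2. As a share of all counts, the typical cell thus held a similar level in all 3 libraries, and the WT median lay between those of the Renin-null libraries. All counts here include the mitochondrial ones, a median of 60.4% in a WT well and 12.4% in a Renin-null well, and *Ren1* in WT. At least 10 CPM was reached by 54.9% of WT cells (40.3 to 68.9) and 53.1% of Renin-null cells (42.7 to 63.4), and after thinning to 62000 total counts the gene was found in 59.2% (44.2 to 73) of WT and 56.6% (45.3 to 67.5) of Renin-null cells. Thinned to 10000 counts of the other genes, the shares were 54.9% (40.3 to 68.9) and 38.6% (28.4 to 49.6), whose intervals overlap. Among the passing wells, 73.3% of WT (44.9 to 92.2) and 54.4% of Renin-null cells (40.7 to 67.6) held at least 10 CPM, again with overlapping intervals. The log2 ratio in passing wells was -0.41. The summed levels were 408 CPM for WT and 467 CPM for Renin-null cells (789 in YFP1, 198 in YFP2), a log2 ratio of 0.19 (0.18 to 0.21), which became -0.18 without Renin-null well 9.

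*Itpr2*, the receptor type with the highest affinity for inositol trisphosphate (ENSMUSG00000030287.15, chromosome 6, 146108299 to 146502223, minus strand), was scarce. No WT cell reached 10 CPM (0 of 51, exact interval 0 to 6.98%; highest 7.45 CPM), against 8 of 96 Renin-null cells (8.33%, 3.67 to 15.8; highest 1468 CPM, in a shallow well with 13 counts of the gene), 1 of them in YFP1 and 7 in YFP2. Thinned to 62000 total counts, it was found in 0 of 49 WT cells (0 to 7.25%) and 8 of 83 Renin-null cells (9.64%, 4.25 to 18.1), and thinned to 10000 counts of the other genes in 0 of 51 (0 to 6.98%) and 1 of 88 (1.14%, 0.0288 to 6.17). The summed levels were 0.758 CPM in WT, 1.19 in YFP1 and 5.92 in YFP2, and the log2 ratio was 2.31 (2.07 to 2.57). Both libraries were above WT, but with YFP1 alone the log2 ratio of 0.65 was below that library's median over all genes of 0.71, and 38.7% of the Renin-null counts came from 1 well of YFP2 that also held 3790 CPM of fibroblast, 579 CPM of podocyte and 3637 CPM of mural markers. Among the passing wells, any count of the gene was found in 60% (32.3 to 83.7) for WT and 68.4% (54.8 to 80.1) for Renin-null.

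*Ano1*, the calcium-activated chloride channel of smooth muscle (ENSMUSG00000031075.18, chromosome 7, 144588549 to 144751974, minus strand), was, among the 9 genes, the one whose share of cells differed most between the genotypes, at 1 count, at 10 CPM and after thinning. It ran from 0 to 815 CPM in WT renin cells (median 7.72 CPM), from 0 to 2352 CPM with a median of 0.346 in YFP1, and from 0 to 1082 CPM with a median of 0 in YFP2. The highest Renin-null wells exceeded every WT cell, while the typical WT cell held more than the upper quartile of either Renin-null library (2.38 CPM in YFP1 and 0.233 CPM in YFP2). At least 10 CPM was reached by 21 of 51 WT cells (41.2%, 27.6 to 55.8) and by 13 of 96 Renin-null cells (13.5%, 7.41 to 22.0), with 16.7% in YFP1 and 10.4% in YFP2. Thinned to 62000 total counts, it was found in 25 of 49 WT cells (51.0%, 36.3 to 65.6) against 10 of 83 Renin-null cells (12.0%, 5.93 to 21.0), with 12.5% in YFP1 and 11.6% in YFP2. Thinned to 10000 counts of the other genes, it was found in 19 of 51 WT cells (37.3%, 24.1 to 51.9) and 8 of 88 Renin-null cells (9.09%, 4.01 to 17.1). Among the passing wells, 9 of 15 WT (60%, 32.3 to 83.7) and 10 of 57 Renin-null cells (17.5%, 8.75 to 29.9) held at least 10 CPM. Among wells with at least 1000 CPM of mural markers the shares were 57.1% and 15.1%. As a description of these 2 samples, and not a test between genotypes, the counting intervals lay apart at 10 CPM over all wells and over passing wells and after either thinning. They overlapped for any count among the passing wells (86.7%, 59.5 to 98.3, and 63.2%, 49.3 to 75.6) and for 10 CPM among the wells that did not pass (33.3%, 18.6 to 51, and 7.69%, 1.62 to 20.9).

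The summed *Ano1* levels were closer, 143 CPM in WT, 137 in YFP1 and 58.1 in YFP2, with a log2 ratio of -0.61 (-0.63 to -0.59) over both libraries. High wells weighed on them: 49.3% of the WT and 44.5% of the Renin-null counts came from 1 well each, and at least 100 CPM was held by 7 WT and 8 Renin-null cells. The ratio was below that of the median gene under all 17 settings (-2.36 to -0.75), but above 0 in 3 of them, the mean over cells of CPM (0.31), thinned counts (0.61) and SCTransform (0.23). TMM factors could not change the value relative to the median gene, since a single factor per genotype cancels there. Wells of the WT library that shared an index sequence with its highest *Ano1* well all held the gene (14 of 14, median 20.1 CPM), and of the WT wells that shared none 32 of 36 held it (median 6.11 CPM), a difference that was not tested. In the wells without a shared index, at least 10 CPM was reached by 12 of 36 WT, 7 of 33 YFP1 and 2 of 33 YFP2 wells. The part of reads assigned to a wrong well in these shares was not tested further.

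**Figure D3:**
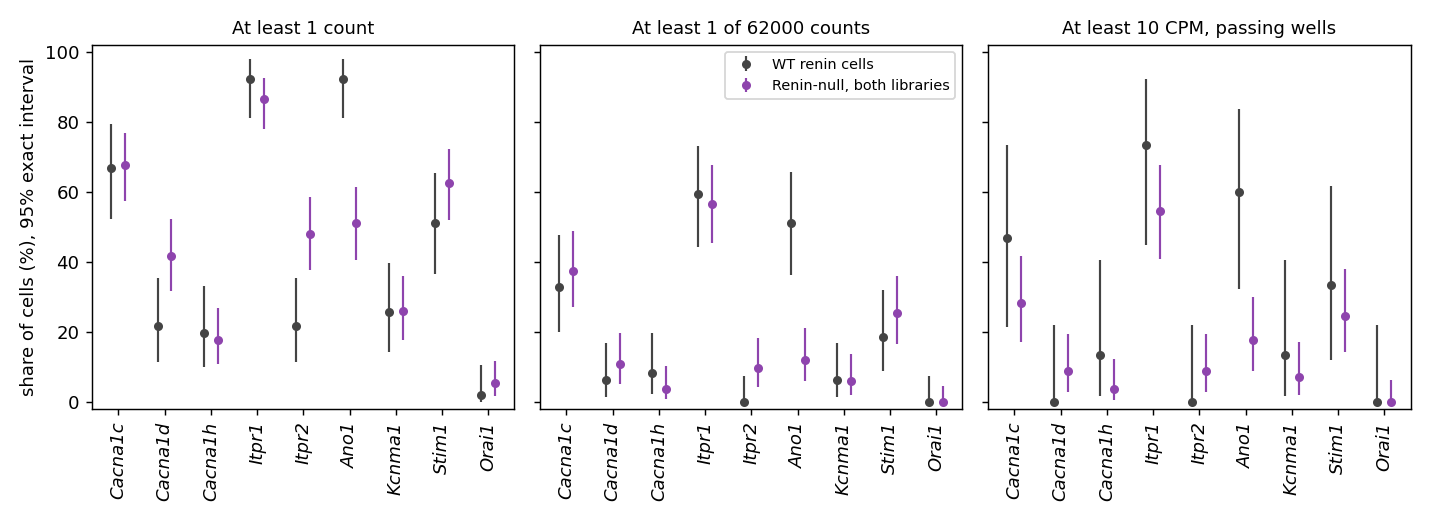
Share of cells in percent, with exact 95% intervals, in which each of the 9 genes had at least 1 count (left), at least 1 count after thinning every well to 62000 total counts (middle), or at least 10 CPM among the wells passing the filter on counts, genes and mitochondrial share (right), for WT renin cells (grey) and Renin-null cells (purple). The *Ano1* shares are 92.2% and 51.0% on the left, 51.0% and 12.0% in the middle, and 60% and 17.5% on the right; the intervals cover counting of cells within 1 sample per genotype and are no test.

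*Kcnma1* encodes the pore of the large-conductance calcium-activated potassium channel (ENSMUSG00000063142.15, chromosome 14, 23289431 to 24014491, minus strand). Its median was 0 in every library, and its highest values were 56.2 CPM in WT, 770 in YFP1 and 67 in YFP2. It was detected in nearly the same share of cells, 25.5% of WT (14.3 to 39.6) and 26.0% of Renin-null (17.6 to 36.0). The summed levels were 2.75 CPM in WT, 12.9 in YFP1 and 3.74 in YFP2, a log2 ratio of 1.53 (1.39 to 1.66) over both libraries. Well 9 held 72.4% of the YFP1 counts, and without it YFP1 was at 3.66 CPM and the log2 ratio at 0.43. The gene was called neither higher nor lower over all wells, but among wells with at least 1000 CPM of mural markers its level was 3.17 CPM for WT and 1.33 CPM for Renin-null wells, and the log2 ratio of -1.25 there had the other direction.

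*Stim1*, the calcium sensor of the endoplasmic reticulum (ENSMUSG00000030987.5, chromosome 7, 102267806 to 102437319, plus strand), ran from 0 to 1471 CPM with a median of 0.0829 in WT, from 0 to 656 CPM with a median of 0 in YFP1, and from 0 to 3434 CPM with a median of 1.77 in YFP2. WT lay between the Renin-null libraries in summed level too, with 137 CPM against 51.1 in YFP1 and 211 in YFP2, and the log2 ratio over both was 0.01 (-0.01 to 0.03). At least 10 CPM was reached by 19.6% of WT cells (9.82 to 33.1) and 21.9% of Renin-null cells (14.1 to 31.5). One YFP2 well held 67.2% of the Renin-null counts, and that well also held 7890 CPM of fibroblast and 350 CPM of podocyte markers beside 21554 CPM of mural markers; their part in the *Stim1* counts was not tested. *Orai1*, the plasma membrane channel that *Stim1* opens (ENSMUSG00000049686.14, chromosome 5, 123015074 to 123030456, plus strand), had 1 count in 1 WT cell and 20 counts in 5 Renin-null cells, 12 of them in 1 well, so its log2 ratio of 3.31 (0.67 to 8.68) rests on few reads. No cell of either genotype held 10 CPM of it (0 of 51, 0 to 6.98%, and 0 of 96, 0 to 3.77%), and a difference in the share of cells was not detectable at this depth.

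Renin-null well 9, the highest in counts for *Cacna1c*, *Itpr1* and *Kcnma1* at once, was low in mural and renin cell markers, and its cell type was not tested. It held 8622 genes, 51.5% mitochondrial counts, 93.7 CPM of mural markers and 8.64 CPM of renin cell markers, and it did not pass the filter. Without it, 2 genes were still called higher and 5 lower, against 37.7% and 34.6% of all genes. The 5 were *Cacna1c*, *Cacna1h*, *Itpr1*, *Ano1* and *Stim1*, with *Itpr1* at -1.34 and *Cacna1d* at -0.99 relative to the median of all genes.

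**Figure D4:**
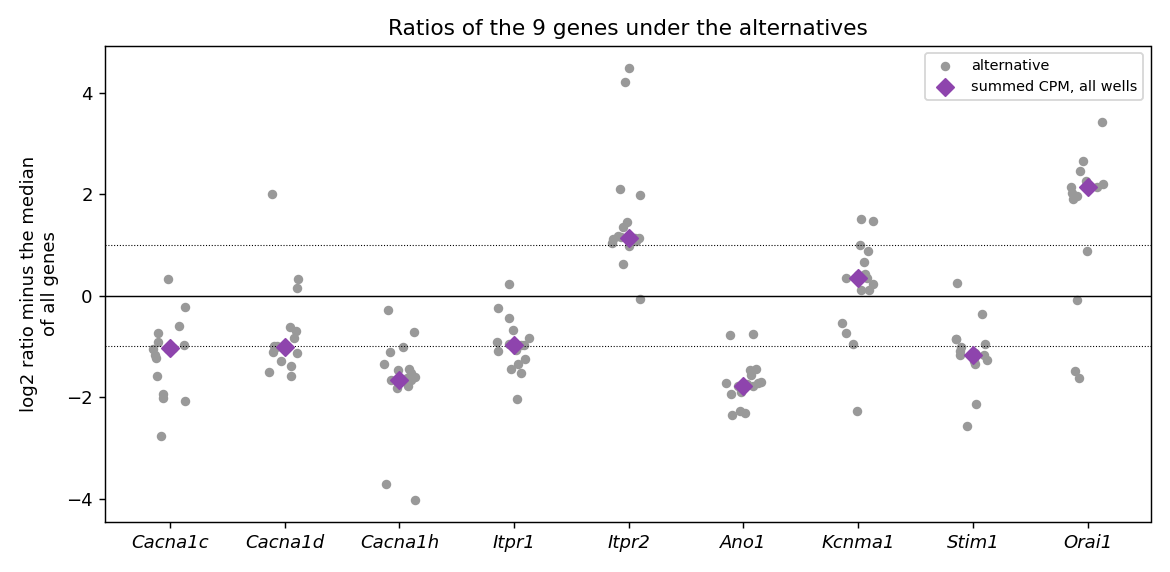
Log2 ratio of each of the 9 genes minus the median of all genes (vertical axis) with summed CPM over all wells (diamonds) and under each of the 16 alternatives (grey points); the dotted lines are the limits of the call rule at 1 and -1. *Ano1* and *Cacna1h* are below 0 throughout, and the other genes have points on both sides of 0.

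Between the 9 genes themselves, leaving out *Orai1*, no pair exceeded a Spearman rho of 0.28 over the 57 passing Renin-null cells (*Cacna1d* with *Itpr2*). Over the same cells, the genes with the most similar log2(CPM + 1) among 5268 candidates included *Pou2f1* (Pearson r 0.61) and *Hopx* (0.54) for *Cacna1c*. For *Itpr1* they were *Elavl1* (0.53), *Chd1* (0.51) and *Vti1b* (0.48), for *Ano1* *Ddx27* (0.56), *Rela* (0.56) and *Stk25* (0.52), and for *Stim1* *Ugcg* (0.52), *Abhd18* (0.51) and *Ube2d2a* (0.49). None of these genes was in any of the calcium lists. The genes nearest to *Itpr2* were *Nmrk1* (0.56), *Gm48216* (0.55) and *Atxn7l1* (0.53), and those nearest to *Kcnma1* were *Tfcp2l1* (0.67), *Tmc4* (0.64) and *Mpv17l* (0.62). *Cacna1h* was nearest to *Pik3c2a* (0.68), *Rgs20* (0.65) and *Pip4k2c* (0.57), and *Cacna1d* to *Abca3* (0.75), *Pck1* (0.74) and *Gpr174* (0.74), of which *Pck1* marks proximal tubule. In the 15 passing WT cells the r of the 24 genes chosen in this way ran from -0.35 (*Pou2f1* with *Cacna1c*) to 0.87 (*Pik3c2a* with *Cacna1h*), with 12 of 24 above 0. The points share libraries, depth and index sequences, and with so few cells at high values the coefficients describe these wells only.

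Pairings with marker genes are given as values. *Ano1* and *Akr1b7* had a Spearman rho of 0.59 (Pearson r 0.64) over the 15 passing WT cells, and 0.00 (0.10) over the 57 passing Renin-null cells. *Cacna1d* and the contractile gene *Tagln* had a rho of -0.44 over the Renin-null cells, -0.53 in YFP1 and -0.35 in YFP2, and 0.10 in WT. By rho these were the pairings farthest from 0 among 60 in WT and among 60 in Renin-null cells, and no test was made of them.

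The wider calcium machinery was followed in 11 lists of 113 genes, 107 of which had a ratio. Of these, 26 were called higher in Renin-null cells and 44 lower, against 37.6% and 34.6% of all genes, with a median log2 ratio of 0.70. For the 104 genes outside the 9, 24 were higher and 39 lower of 98 with a ratio, and the median was 0.75. The libraries YFP1 and YFP2 fell on opposite sides of WT for 31 of the 113, which include genes without a ratio. The share over all genes was not determined here either.

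Of 8 pore-forming subunits with a ratio, none was called higher and 5 lower, against 37.6% and 34.6% of all genes, and *Cacna1c* was the only one with a count in at least 20% of cells and at least 10 CPM in one genotype. Of the 8 auxiliary subunits, 3 were higher and 4 lower, near the shares over all genes. *Cacnb2*, a beta subunit that helps the pore reach the membrane, was at 70.9 CPM in WT, 14.7 in YFP1 and 58.3 in YFP2 (log2 ratio -0.88). *Cacnb4*, another beta subunit, had 11 counts among WT and 17850 among Renin-null cells (9.65), 75.2% of them in 1 well.

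In store-operated entry, 3 of 6 genes were called higher and 3 lower, against 37.6% and 34.6% of all genes. *Stim2*, the sensor of basal store calcium, had 27 counts among WT and 4187 among Renin-null cells (log2 ratio 6.27), 86.6% of them in 1 well. *Orai3*, a channel related to *Orai1*, was at 43.5 CPM in WT and 9.73 in Renin-null cells (-2.16), and 93.3% of its WT counts came from 1 cell. *Stim2* was detected in 3 of 51 WT and 22 of 96 Renin-null cells, and *Orai3* in 16 and 14. Among 6 release channels, 4 were higher and none lower, against 37.6% and 34.6% of all genes, with a median log2 ratio of 3.83. The 2 of the 6 with at least 10 CPM in one genotype were called neither, and their median was 0.54. *Ryr2*, a ryanodine receptor, stood at 5.99 CPM in WT, 21.1 in YFP1 and 2.80 in YFP2 (0.89), with 80.5% of the Renin-null counts in 1 well.

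Of the 8 anoctamins and other calcium-activated chloride channels with a ratio, 2 were called higher and 5 lower, against the same 37.6% and 34.6%, and all 3 with at least 10 CPM in one genotype were lower against the median of such genes, where 32.9% of genes were. *Ano6*, a lipid scramblase, was the most abundant of the 3, at 652 CPM in WT, 754 in YFP1 and 227 in YFP2 (log2 ratio -0.48). Its median over cells had the other order, 8.49 CPM in WT and 55.8 in Renin-null cells, and 24 of 51 WT and 59 of 96 Renin-null cells held at least 10 CPM. *Ano10* was at 167 CPM in WT, 2.84 in YFP1 and 32.1 in YFP2 (-3.15), and a single WT cell supplied 62% of the WT sum. Of 8 calcium-activated potassium channel genes with a ratio, 3 were higher and 2 lower, against 37.6% and 34.6% of all genes. *Kcnmb1*, the smooth muscle beta subunit of the *Kcnma1* channel, was at 81.7 CPM in WT and 83.7 in Renin-null cells (22.8 in YFP1, 135 in YFP2; log2 ratio 0.03). *Kcnmb4*, a beta subunit best known from neurons, was at 2.09 CPM in WT, 20.0 in YFP1 and 28.9 in YFP2 (3.57), above WT in both libraries. It was detected in a similar share of cells, 30 of 96 Renin-null (31.2%) and 15 of 51 WT (29.4%), and 3 wells held 74.6% of the Renin-null counts. *Kcnn4*, an intermediate-conductance potassium channel, stood at 3.72 and 75.7 CPM (4.35), with 85.8% of the Renin-null counts in 1 well.

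Outside these families, 4 of 14 other entry channels were called higher and 4 lower, against 37.6% and 34.6% of all genes. *P2rx1*, the ATP-gated channel through which sympathetic nerves and tubules act on afferent arterioles, was at 72.5 CPM in WT, 233 in YFP1 and 686 in YFP2 (log2 ratio 2.73). It was detected in 31 of 51 WT and 83 of 96 Renin-null cells, and its highest well held 11.2% of the Renin-null counts, against 23.9% or more for each of the 9 genes. *Trpm4*, a calcium-activated cation channel, stood at 308 CPM in WT, 4.90 in YFP1 and 3.07 in YFP2 (-6.30), with 77% of the WT counts in 1 cell. Of 13 pumps and exchangers, none was called higher and 8 lower, against 37.6% and 34.6% of all genes, with a median log2 ratio of -0.58. *Atp2a3*, a pump that refills the endoplasmic reticulum, was at 115 CPM in WT, 3.41 in YFP1 and 41.9 in YFP2 (-2.24), with 78.5% of the WT and 76.9% of the Renin-null counts in 1 cell each, and *Atp2c1*, a pump of the Golgi, at 65.1 and 217 CPM (1.73), with 32.6 in YFP1 and 370 in YFP2 and 51.8% of the Renin-null counts in 1 well.

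Of the 7 genes of mitochondrial calcium uptake, 3 were called higher and 1 lower, against 37.6% and 34.6% of all genes. *Smdt1*, a subunit of the mitochondrial calcium uniporter, was at 39.9 CPM in WT, 47.1 in YFP1 and 39.6 in YFP2 (log2 ratio 0.11). Of 8 calcium-binding proteins of the endoplasmic reticulum with a ratio, 2 were higher and 3 lower, against the same shares of all genes. They ran from *Calu* at 20.0 CPM in WT, 402 in YFP1 and 158 in YFP2 (3.75) to *Rcn1* at 34.3 and 0.792 CPM (-5.43). A single cell held 98.0% of the WT *Rcn1* counts. *Calu* was detected in 18 of 51 WT and 80 of 96 Renin-null cells. Of 21 sensors and effectors, 2 were higher and 9 lower, again against 37.6% and 34.6%. Among the 18 with at least 10 CPM in one genotype, 5 were higher and 6 lower against the median of such genes. By that rule 36.0% of genes were called higher and 32.9% lower. The 2 called higher against the median of all genes were *Casr* and *Pde1c*, named here after their values were seen. Both were scarce, with 0 and 3 counts over WT and 3600 and 430 over Renin-null cells. A single well held 82.5% of the Renin-null counts of *Casr*, and a single well 90% of those of *Pde1c*. *Pde1a*, a calmodulin-dependent phosphodiesterase, was called neither against the median of all genes and higher against that of genes with at least 10 CPM. It was at 79.6 CPM in WT, 474 in YFP1 and 231 in YFP2 (2.10). *Nfatc3*, a calcineurin-dependent transcription factor, was at 64.9 and 8.47 CPM (-2.94), where a single WT cell supplied 83.1% of the WT sum.

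**Figure D5:**
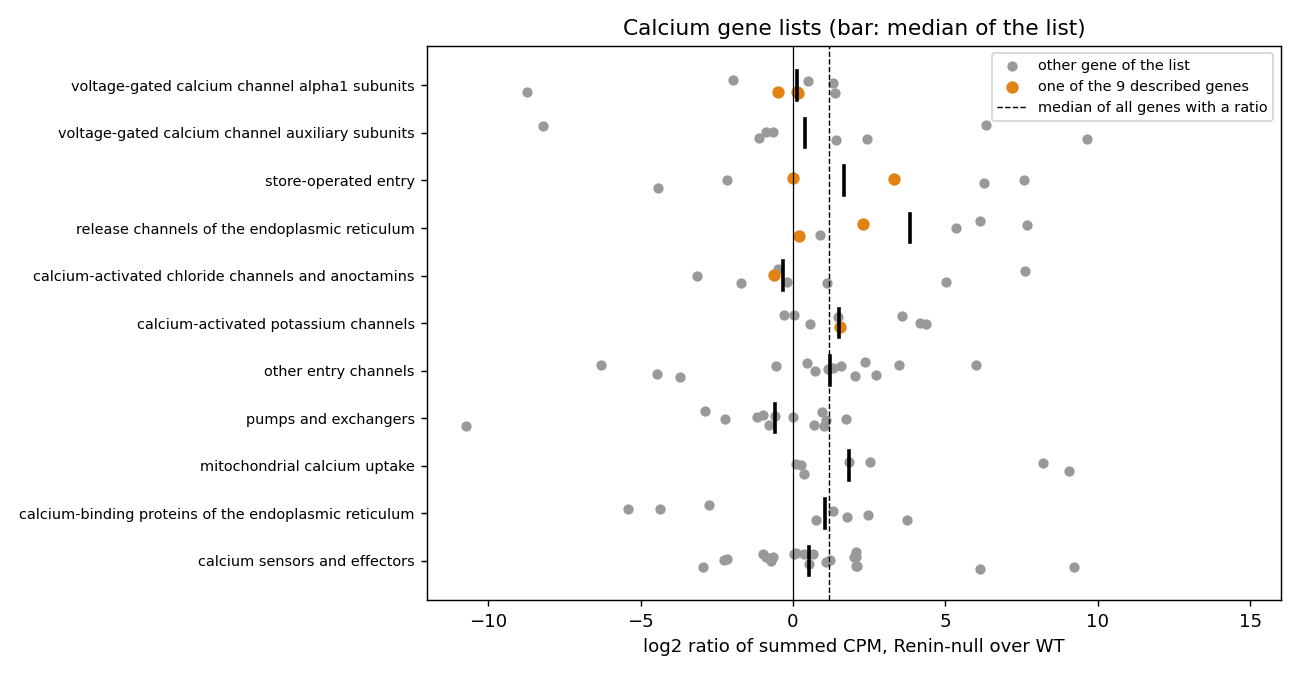
Log2 ratio of summed CPM, Renin-null over WT, of the genes of the 11 calcium lists (one row each); orange points are the 9 described genes, bars the medians of the lists, and the dashed line the median of all genes, 1.17, with a genotype at 0 counts set to 3 counts. The genes of most lists spread to both sides of the dashed line, and the medians run from -0.58 for pumps and exchangers to 3.83 for release channels.

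Markers of other kidney cell types were also measured, without a test of which cells their transcripts came from. The 8 proximal tubule markers summed to 103 CPM in WT, 360 in YFP1 and 396 in YFP2, with *Pck1*, *Slc34a1* and *Miox* most abundant in turn, and *Slc5a2* at 0 in WT. The 6 loop and distal tubule markers summed to 0.515, 189 and 43.0 CPM (*Calb1*, *Slc12a1* and *Slc12a3* most abundant; *Pvalb* at 0 in all 3 libraries), and the 6 collecting duct markers to 20.0, 2.96 and 83.7 CPM. The 5 podocyte markers summed to 86.1, 143 and 906 CPM, with *Podxl* among those at 0 in WT, and the 6 endothelial markers to 36.8, 28.8 and 382 CPM, with *Cdh5* and *Tek* at 0 in WT. The 6 fibroblast markers summed to 173, 440 and 1758 CPM, and the 7 macrophage markers to 1.48, 17.1 and 4.24 CPM, with *C1qb* and *Adgre1* at 0 in all 3. Several lists were thus higher in YFP2, the library in which *Itpr2*, *Cacna1h* and *Stim1* were also higher than in YFP1, and their part in those levels was not tested.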

How the data were processed

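RNA of single cells was amplified with the SMART-Seq v4 kit. Per the labels and the study's methods, the authors checked reads with FastQC 0.11.5, trimmed them with Trimmomatic 0.39, quantified them with Salmon 0.11.2 (GRCm38.p6) and deposited length-scaled estimated counts (expected counts) per gene and cell. Here these were rounded, added up within each genotype and scaled to 1000000 (CPM). Genotypes came from the labels; no edgeR or other model was fitted across cells, since each genotype is 1 sample. For ratios, 0 counts in a group were replaced by 3 counts, and genes with 3 or fewer in both had none. Lengths are medians over coding transcripts in GENCODE M21 (GRCm38), which also gave coordinates. The 9 genes, lists and limits were chosen with earlier results of these data known.

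Named genes were the 9; in each list the highest and lowest log2 ratio among genes with a count in at least 20% of cells and 10 CPM in one genotype; family genes meeting both limits; and the 3 genes with the highest Pearson r, among genes with counts in at least 50% of passing Renin-null cells, for each of the 9 found in at least 20% of them. The 14 alternative settings and 3 added after seeing the data (2 for ratios, 1 for shares of cells) are in the closing section; TMM factors came from edgeR 4.0.16 and corrected counts from sctransform 0.4.2 in Seurat 5.3.0. Sums were computed with Python 3.11.15, numpy 2.4.6, pandas 2.3.3 and scipy 1.17.1. The ratio was tested on simulated sums with counting error only. That simulation had no variation between wells, so it does not bear on the spread between wells of these data. No doublet caller was run; wells over 9000 genes (1 WT, 6 Renin-null) were left out in an alternative. Depth per well is given with the results. Protein sequences were not used here. A few genes that the naming rule selected are not reported here.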

Additional observations from a re-analysis of the deposited data

How the results depend on the processing

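No paired analysis was possible because each genotype was 1 sample and cell numbers pair nothing. The median of the 9 genes relative to all genes stayed below 0 under all 16 alternatives. Not all of these could have changed it. A single factor per genotype cancels in such a value and in the calls, so TMM factors could change neither. Leaving out mitochondrial genes rescales each genotype in nearly the same way. The median of the 9 genes was -1.01, and -1.01 with TMM factors, under which the median of all genes fell from 1.17 to 0.47. It was -1.02 without mitochondrial genes, -1.06 with the mean over cells of CPM, -0.09 with the difference of mean log2(CPM + 1), -0.67 with thinned counts, -1.23 with SCTransform, -0.06 with YFP1 alone, -0.62 with YFP2 alone, -1.48 without the highest cell of each gene, -1.34 in passing wells, -0.92 without wells over 9000 genes, -0.98 with near-identical wells counted once, and -1.13 and -0.70 against the median of genes with at least 100 counts and with at least 10 CPM. With 2 alternatives chosen after seeing the data it was -1.13 without Renin-null well 9 and -1.29 without wells under 1000 CPM of mural markers.

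The count called higher was 2, and it became 0 with the difference of mean log2(CPM + 1), 1 with YFP2 alone and 1 without the highest cell. The count called lower was 5, and it became 1 with the difference of means, 2 with thinned counts, with YFP1 alone and against genes with at least 10 CPM, and 3 with YFP2 alone and with near-identical wells counted once. The other alternatives left the counts within 1.5 times. The difference of means narrows all values, and by it 7.13% of all genes were called higher and 2.32% lower; under the other alternatives these shares ran from 32.3% to 41% and from 30.1% to 36.5%.

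Relative to the median gene, the difference of means gave 0.32 for *Cacna1d*, 0.25 for *Stim1* and -0.09 for *Orai1*, each on the other side of 0. *Cacna1d* also changed side without the highest cell (0.15) and in passing wells (2.01), and *Orai1* without the highest cell (-1.48) and with SCTransform (-1.62). With YFP1 alone *Cacna1c* (0.33), *Itpr1* (0.24) and *Itpr2* (-0.06) changed side, and *Kcnma1* (0.35) did with YFP2 alone (-0.54), in passing wells (-0.96), without well 9 (-0.73) and without wells of few mural markers (-2.27). The cause of these changes was not tested, and thinned counts gave no value for *Orai1*. The few wells with high counts limit the precision of all 9 genes, and the depth that of *Orai1* and *Itpr2*.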

Other observations

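Index sequences shared within a library went with detection for some genes and not for others. *Itpr1* was detected in all 6 WT wells that shared an index with its highest WT well, at a median of 164 CPM, and in 40 of the other 44 at a median of 7.30 CPM. For *Stim1* the WT values were 12 of 14 wells and 13 of 36. In library YFP1, by contrast, *Cacna1c* was detected in 6 of 14 wells sharing an index with well 9 and in 26 of the other 33. The contrast held for any count only, since 6 of the 14 and 9 of the 33 reached 10 CPM. The difference between these sets of wells was not tested.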
